A study of Homo sapiens with 9 samples.

Results

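Pseudogenes whose counts were lower in dye-treated intestinal cells were set beside the protein-coding genes from which they derive, to ask whether a pseudogene and its parent moved together. There are 9 such genes among the 28395 in the count files: the pseudogenes MST1P2, DDX12P, SDHAP1, SDHAP4 and HERC2P2, and the parents MST1, DDX11, SDHA and HERC2. The 5 pseudogenes were chosen by their counts, which were lower in the treated libraries than in control, so their differences from control are described without a test. The 4 parents were taken as partners and not for their own values, so their differences were tested. All 9 genes had enough counts to be among the 16017 genes tested.

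The cells were Caco-2, an established line from a colon carcinoma, which in confluent culture takes on features of small-intestinal enterocytes. Differentiated cells were exposed for 24 h to 10 µM carmine or 20 µM carminic acid, or kept in plain culture medium (control). Both dyes come from cochineal: carminic acid is an anthraquinone, and carmine holds it bound to aluminium, so that metal and stated concentration both differ between the treated groups. Each group had 3 RNA-seq libraries (A, B and C) of 54871018 to 57581301 counts, and the labels name no separate cultures, so that p-values measure the spread between these samples only, which may be technical.

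Of the 9 enterocyte markers listed, 8 were tested and KRT20 had 0 counts in all libraries, where 0 counts allow up to 3. VIL1, the microvillus protein villin, averaged 1208 ± 123 CPM (read counts scaled to library size with TMM factors) with carmine, 1303 ± 31.9 CPM with carminic acid and 1200 ± 27.2 CPM in control (SD, n = 3 each). Of the markers of other cells, the leukocyte gene PTPRC averaged at most 0.0473 CPM in any group and the goblet mucin MUC2 at most 0.0119 CPM, whereas the collagen gene COL1A1 averaged 108.5 ± 13.2, 116.0 ± 14.8 and 126.3 ± 21.4 CPM with carmine, with carminic acid and in control (SD, n = 3 each). Of 9 listed stromal, endothelial and immune markers 7 were tested, and of 7 goblet, Paneth and enteroendocrine markers 2. In control LYZ averaged 11.6 CPM, PECAM1 10.5, VIM 7.41, PDGFRB 5.75, VWF 1.10 and CD3E 0.444. TFF3, listed with MUC2, averaged 20.0, 15.2 and 15.1 CPM with carmine, with carminic acid and in control, and CHGB 2.61 CPM in control. The share of counts on mitochondrially encoded genes was 0.974% to 1.30% with carmine, 1.24% to 2.08% with carminic acid and 1.94% to 2.51% in control, and its part in the differences below was not tested. Carmine library C differed from the mean of the other carmine libraries by 0.418 (root mean square, log2 CPM), the largest such value of the 9 libraries, whose lowest was 0.299.

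Pseudogenes are copies of genes that have lost the capacity to make the full protein. Those that arose by duplication of a genomic segment keep the exons and introns of the parent, and some are still transcribed into RNA without an intact reading frame. Because copy and parent are nearly identical in sequence, a short read can match both, and its place then depends on the aligner and the counting rule. The sources used here do not state how reads that match several places were treated, whether strand was used, or which annotation release was counted. The split of reads between a pseudogene and its parent is uncertain for every pair described. In RNA from a whole culture, less RNA per cell and fewer cells that carry it cannot be told apart.

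The sequences show how little separates copy from parent. For each family 100 bases of 1 coding exon of the parent are printed with the matching bases of the pseudogene, 5′ to 3′ on the transcribed strand (GENCODE v29 transcripts, GRCh38). Among the windows aligned without a gap, the one with the most differences was taken, and capitals in a pseudogene mark the bases that differ from the parent, and capitals in a parent the bases at which a pseudogene printed here differs.
MST1P2, chr1:16646597-16646696 (+): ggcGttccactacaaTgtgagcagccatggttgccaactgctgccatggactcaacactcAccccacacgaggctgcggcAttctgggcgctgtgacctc
MST1, chr3:49687569-49687668 (-): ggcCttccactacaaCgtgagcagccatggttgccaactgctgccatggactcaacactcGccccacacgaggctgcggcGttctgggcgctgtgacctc
DDX12P, chr12:9425503-9425602 (-): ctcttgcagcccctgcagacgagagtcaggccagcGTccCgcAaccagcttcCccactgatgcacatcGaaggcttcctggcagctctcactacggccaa
DDX11, chr12:31096859-31096958 (+): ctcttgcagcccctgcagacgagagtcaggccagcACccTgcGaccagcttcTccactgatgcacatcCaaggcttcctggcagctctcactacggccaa
SDHAP1, chr3:195984115-195984214 (-): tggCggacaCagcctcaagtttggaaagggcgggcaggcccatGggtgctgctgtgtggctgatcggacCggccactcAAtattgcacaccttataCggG
SDHAP4, chr3:197621707-197621806 (-): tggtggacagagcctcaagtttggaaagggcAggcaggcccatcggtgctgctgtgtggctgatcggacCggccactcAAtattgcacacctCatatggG
SDHA, chr5:225945-226044 (+): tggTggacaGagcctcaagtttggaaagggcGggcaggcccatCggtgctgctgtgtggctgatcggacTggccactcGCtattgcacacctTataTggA
HERC2P2, chr15:22561618-22561717 (+): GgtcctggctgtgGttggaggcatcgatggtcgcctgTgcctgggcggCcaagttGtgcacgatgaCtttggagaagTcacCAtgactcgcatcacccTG
HERC2, chr15:28213814-28213913 (-): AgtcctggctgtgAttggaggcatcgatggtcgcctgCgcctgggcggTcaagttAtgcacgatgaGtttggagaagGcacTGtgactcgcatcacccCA
In these windows MST1P2 differed from MST1 at 4 bases (exon 3 of both transcripts), DDX12P from DDX11 at 6 (exon 17 of both) and HERC2P2 from HERC2 at 11 (exon 21 of the pseudogene and exon 42 of the parent). In exon 5 of all 3 transcripts, SDHAP1 differed from SDHA at 8 bases and SDHAP4 at 6.

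In the blastn alignments kept, 92.5% of DDX12P aligned to DDX11 at 94.5% identity and 82.4% of SDHAP1 to SDHA at 94.8%. For HERC2P2 and HERC2 it was 81.0% at 97.3%, for SDHAP4 and SDHA 53.9% at 94.9%, and for MST1P2 and MST1 52.9% at 97.7%. These shares may miss matching stretches and are read as lower bounds. Of HERC2P2, 39.6% aligned to its fellow copy HERC2P3, yet 53% of its 50-base stretches were found there. The unaligned rest of a pseudogene may thus still have a counterpart in its parent. How far a short read could tell copy and parent apart differed by family. Stretches of 50 bases found without a mismatch in the parent made up 43.8% of those in DDX12P, 32.9% in HERC2P2 and 30.2% in MST1P2, but 8.89% in SDHAP1 and 7.65% in SDHAP4. For stretches of 100 bases the shares were 17.5% for DDX12P, 14.7% for HERC2P2, 8.17% for MST1P2, 0.206% for SDHAP4 and 0% for SDHAP1. The SDHA copies were thus the most separable from their parent, and DDX12P the least. The copies also resemble each other: 39.5% of the 100-base stretches of HERC2P2 were found in HERC2P3, 23.1% of those of MST1P2 in MST1L, and 8.19% of those of SDHAP1 in SDHAP4.

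With edgeR's quasi-likelihood test and Benjamini-Hochberg adjustment over all 16017 genes, 0 genes passed an adjusted p of 0.05 in carmine against control and 0 in carminic acid against control. At an unadjusted p under 0.05 there were 1760 genes (11% of those tested) in the first comparison and 1030 (6.43%) in the second. DESeq2 called 81 genes (0.586% of the 13828 to which it gave an adjusted p) in the first and 6 genes (0.0375% of 16002) in the second, and limma-voom 0 in each. Neither edgeR nor the other tools called any of the 4 parents in either comparison. Both comparisons use the same 3 control libraries, so a likeness between them is partly that of the shared control.

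MST1 encodes macrophage-stimulating protein, a secreted ligand of the hepatocyte growth factor family that binds the receptor tyrosine kinase MST1R. Its pseudogene MST1P2 (Gene ID 11209, chr1:16645574-16650420) had 40.2, 34.2 and 38.0 CPM in the carmine libraries, 48.0, 56.2 and 50.4 CPM in the carminic acid libraries, and 56.1, 63.6 and 55.1 CPM in the control libraries. Every carmine library was below every control library, while the carminic acid libraries lay between and overlapped control. The log2 fold change was -0.64 (SE 0.0908) for carmine against control and -0.18 (SE 0.0902) for carminic acid against control. Of the 16017 genes, 7.67% were lower in carmine without overlap and 8.82% in carminic acid, which is the background for each count of separated groups below.

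The parent MST1 (Gene ID 4485, chr3:49683947-49689474) had 96.7, 98.4 and 129.0 CPM with carmine, 105.7, 131.4 and 121.5 CPM with carminic acid, and 117.1, 124.5 and 104.9 CPM in control. The 3 groups overlapped, and carmine library C was the highest of its group. The log2 fold change was -0.10 (SE 0.113, edgeR adjusted p = 0.756) for carmine and 0.05 (SE 0.113, edgeR adjusted p = 0.909) for carminic acid. Without carmine library C the carmine value was -0.24 (edgeR adjusted p = 0.244). Per kilobase of the longest annotated transcript, MST1P2 stood at 16.4 ± 1.31, 22.5 ± 1.83 and 25.4 ± 2.04 CPM with carmine, with carminic acid and in control, and MST1 at 26.0 ± 4.38, 28.8 ± 3.12 and 27.8 ± 2.39 CPM (SD, n = 3 each).

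MST1L, a further copy of MST1 on chromosome 1, was far lower, at 2.80, 1.82 and 2.53 CPM with carmine, 2.23, 3.18 and 2.81 CPM with carminic acid and 2.89, 3.57 and 3.14 CPM in control. The carmine libraries were again below control without overlap, but the log2 fold change of -0.42 (SE 0.191) did not pass the test (edgeR adjusted p = 0.448). For carminic acid it was -0.22 (SE 0.190, edgeR adjusted p = 0.752), with overlap. Of 12 genes listed for hepatocyte growth factor family signalling, 10 were tested and 0 passed in either comparison. Their median log2 fold change was 0.05 for carmine and 0.12 for carminic acid, against 0.01 and -0.01 over all genes tested. The smallest p in the carmine comparison belonged to the receptor MST1R, at 15.8 ± 0.616 CPM with carmine and 18.8 ± 1.79 CPM in control (SD, n = 3 each; log2 fold change -0.25, edgeR adjusted p = 0.386). In the carminic acid comparison it belonged to SPINT1, an inhibitor of the protease that activates these ligands (log2 fold change 0.19, edgeR adjusted p = 0.717).

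**Figure D1:**
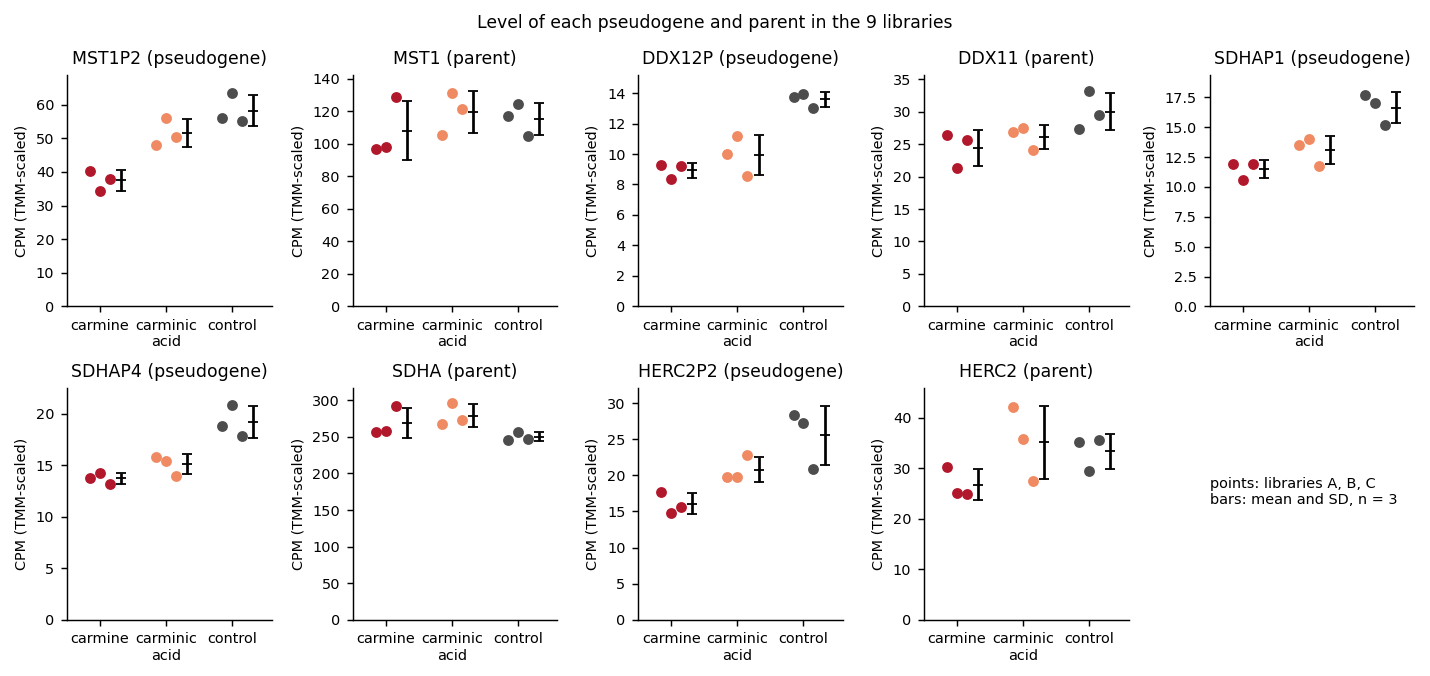
Level of the 5 pseudogenes and 4 parents in TMM-scaled CPM (linear axes from 0) in each of the 9 libraries, with the mean and SD of each group beside the points. The carmine points lie below all control points for the 5 pseudogenes and for DDX11, and those of MST1 and HERC2 overlap control, while the SDHA points of both treated groups are above it.

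DDX11 is an iron-sulfur DNA helicase that acts in sister chromatid cohesion and DNA repair. DDX12P (Gene ID 440081, chr12:9417691-9448172) is its copy elsewhere on the same chromosome and, like the parent, has a transcript of 27 exons. It had 9.26, 8.34 and 9.18 CPM with carmine, 10.0, 11.2 and 8.58 CPM with carminic acid, and 13.7, 14 and 13 CPM in control. All 6 treated libraries were below all 3 control libraries, which held for 2.2% of the genes tested. The log2 fold change was -0.61 (SE 0.108) for carmine and -0.45 (SE 0.108) for carminic acid.

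The parent DDX11 (Gene ID 1663, chr12:31073860-31104799) had 26.4, 21.3 and 25.7 CPM with carmine, 26.8, 27.4 and 24.1 CPM with carminic acid, and 27.4, 33.1 and 29.5 CPM in control. The carmine libraries were below control without overlap, by a narrow gap, and carminic acid library B lay just above control library A. The log2 fold change was -0.29 (SE 0.103, 95% interval -0.51 to -0.08, edgeR adjusted p = 0.384) for carmine and -0.20 (SE 0.102, edgeR adjusted p = 0.717) for carminic acid. DDX11 was the only parent with a negative value in both comparisons, and neither passed the test. Per kilobase, DDX12P averaged 3.03, 3.37 and 4.61 CPM with carmine, with carminic acid and in control, and DDX11 averaged 5.84, 6.24 and 7.17 CPM.

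DDX11-AS1, an antisense RNA that starts beside DDX11, averaged 0.677 ± 0.192, 0.636 ± 0.0118 and 0.832 ± 0.233 CPM with carmine, with carminic acid and in control (SD, n = 3 each), and without strand its reads cannot be told from those of overlapping transcripts. Its log2 fold changes were -0.30 for carmine (edgeR adjusted p = 0.709) and -0.39 for carminic acid (edgeR adjusted p = 0.740). DDX11L2, a transcribed pseudogene named for DDX11, averaged 0.647 ± 0.193, 0.452 ± 0.0522 and 0.527 ± 0.228 CPM, with log2 fold changes of 0.30 (edgeR adjusted p = 0.753) and -0.22 (edgeR adjusted p = 0.862). Of 26 genes of iron-sulfur helicases and sister chromatid cohesion, DDX11 included and all tested, 21 were lower and 5 higher with carmine. With carminic acid 19 were lower and 7 higher. Among all genes tested, 48.3% were lower with carmine and 51.9% with carminic acid. None of the 26 passed in either comparison, and their medians were -0.11 and -0.07 on the log2 scale. SMC1A, a subunit of the cohesin ring, had the smallest p with carmine at 113.4 ± 4.47 CPM with carmine and 136.1 ± 4.4 CPM in control (SD, n = 3 each; log2 fold change -0.26, edgeR adjusted p = 0.322). With carminic acid it was ESCO2, an acetyltransferase of cohesin (log2 fold change -0.36, edgeR adjusted p = 0.717).

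SDHA is the flavoprotein subunit of succinate dehydrogenase, the enzyme that links the citric acid cycle to the respiratory chain in mitochondria. Its copies SDHAP1 (Gene ID 255812, chr3:195959921-195990279) and SDHAP4 (Gene ID 220729, chr3:197614027-197627881) both lie on chromosome 3. SDHAP1 had 11.9, 10.6 and 12 CPM with carmine, 13.5, 14 and 11.8 CPM with carminic acid, and 17.7, 17.1 and 15.2 CPM in control. SDHAP4 had 13.8, 14.2 and 13.1 CPM with carmine, 15.8, 15.4 and 14 CPM with carminic acid, and 18.8, 20.8 and 17.9 CPM in control. For both copies all 6 treated libraries lay below all 3 control libraries. The log2 fold changes of SDHAP1 were -0.53 (SE 0.103) for carmine and -0.34 (SE 0.102) for carminic acid. Those of SDHAP4 were -0.48 (SE 0.0929) and -0.35 (SE 0.0926).

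The parent SDHA (Gene ID 6389, chr5:218320-268746) had 257.3, 258.3 and 293.0 CPM with carmine, 267.4, 296.6 and 273.7 CPM with carminic acid, and 246.0, 257.3 and 247.4 CPM in control. The order was opposite to that of its copies, with the treated libraries at or above the highest control library. In carmine the gap was smaller than the rounding of these values, since carmine library A and control library B both stood at 257.3 CPM. The log2 fold change was 0.11 (SE 0.0724, edgeR adjusted p = 0.573) for carmine and 0.16 (SE 0.0724, edgeR adjusted p = 0.717) for carminic acid, and neither passed. Without carmine library C the carmine value was 0.05 (edgeR adjusted p = 0.805). Groups that did not overlap in the higher direction made up 7.32% of genes with carmine and 12% with carminic acid.

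The 95% intervals of SDHA ran from -0.05 to 0.26 for carmine and from 0.00 to 0.31 for carminic acid. Per kilobase SDHA was the most abundant of the 9 genes, at 89.8 ± 6.78, 93.1 ± 5.12 and 83.4 ± 2.05 CPM with carmine, with carminic acid and in control. SDHAP4 stood at 8.84 ± 0.349, 9.72 ± 0.618 and 12.3 ± 0.986 CPM, and SDHAP1 at 4.61 ± 0.306, 5.26 ± 0.480 and 6.68 ± 0.528 CPM (SD, n = 3 each). SDHAP3, a copy on the same chromosome as the parent, had 3.04, 3.38 and 3.24 CPM with carmine, 3.78, 3.55 and 3.2 CPM with carminic acid and 4.66, 3.60 and 4.19 CPM in control. Its log2 fold changes were -0.36 (SE 0.143, edgeR adjusted p = 0.404), with no overlap, and -0.24 (SE 0.143, edgeR adjusted p = 0.717), with overlap.

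All 8 listed genes of succinate dehydrogenase, the 4 subunits and 4 assembly factors, were tested and 0 passed. With carmine all 8 had a positive log2 fold change, with a median of 0.11, and with carminic acid 4 were positive and 4 negative, with a median of 0.03. Negative values made up 48.3% of all genes tested with carmine and 51.9% with carminic acid. The iron-sulfur subunit SDHB averaged 148.3 ± 14.5, 143.9 ± 5.71 and 136.6 ± 7.58 CPM with carmine, with carminic acid and in control (SD, n = 3 each). SDHAF2, the factor that aids insertion of the flavin into SDHA, had the smallest p with carmine, at 29.3 ± 2.93 CPM with carmine and 24.3 ± 0.816 CPM in control (SD, n = 3 each; log2 fold change 0.27, edgeR adjusted p = 0.384). With carminic acid the smallest p of the list was that of SDHA itself.

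HERC2 is a very large ubiquitin ligase that takes part in the response to DNA breaks, and partial copies of it lie at the breakpoints of the Prader-Willi and Angelman syndrome region. HERC2P2 (Gene ID 400322, chr15:22494837-22590831) is one of them. It had 17.7, 14.8 and 15.7 CPM with carmine, 19.8, 19.8 and 22.9 CPM with carminic acid, and 28.4, 27.3 and 20.9 CPM in control. The carmine libraries lay below all control libraries, whereas carminic acid library C was above control library C, the lowest control. The log2 fold change was -0.67 (SE 0.118) for carmine and -0.30 (SE 0.117) for carminic acid.

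The parent HERC2 (Gene ID 8924, chr15:28111040-28322179) had 30.3, 25.1 and 24.9 CPM with carmine, 42.1, 35.7 and 27.5 CPM with carminic acid, and 35.2, 29.4 and 35.5 CPM in control. Both treated groups overlapped control, and the carminic acid libraries spread most widely. The log2 fold change was -0.32 (SE 0.137, 95% interval -0.61 to -0.03, edgeR adjusted p = 0.436) for carmine and 0.07 (SE 0.136, edgeR adjusted p = 0.882) for carminic acid. HERC2P2 was the only pseudogene with a higher level per kilobase than its parent, at 2.79 ± 0.251, 3.62 ± 0.308 and 4.45 ± 0.702 CPM with carmine, with carminic acid and in control, against 1.74 ± 0.200, 2.29 ± 0.475 and 2.18 ± 0.226 CPM for HERC2 (SD, n = 3 each). These levels rest on the longest annotated transcripts of 5746 and 15337 bases.

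HERC2P3, a further copy on chromosome 15, had 5.01, 4.70 and 4.06 CPM with carmine, 4.45, 5.29 and 4.22 CPM with carminic acid and 6.40, 6.17 and 6.34 CPM in control. All 6 treated libraries were below all control libraries, with log2 fold changes of -0.46 (SE 0.130, edgeR adjusted p = 0.332) and -0.44 (SE 0.130, edgeR adjusted p = 0.717). HERC2P9 had 0, 7 and 6 counts with carmine, 15, 1 and 9 counts with carminic acid, and 113, 7 and 11 counts in control. Its log2 fold changes of -3.30 (edgeR adjusted p = 0.445) and -2.38 (edgeR adjusted p = 0.717) rest on control library A, and were -1.02 and -0.10 without it. A list of 21 genes held HERC ubiquitin ligases with HERC2 itself, HERC2 partners, and OCA2, which is only a genomic neighbour of HERC2. All were tested and 0 passed. With carmine 15 were lower and 6 higher (median -0.05), OCA2 among the higher, and with carminic acid 13 were lower and 8 higher (median -0.08). The shares of lower genes among all tested were 48.3% and 51.9%. RNF168, a ubiquitin ligase that marks chromatin at DNA breaks, had the smallest p with carmine, at 33.5 ± 3.39 CPM with carmine and 40.6 ± 2.5 CPM in control (SD, n = 3 each; log2 fold change -0.28, edgeR adjusted p = 0.384). With carminic acid it was the family member HERC6 (log2 fold change -0.30, edgeR adjusted p = 0.717).

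**Figure D2:**
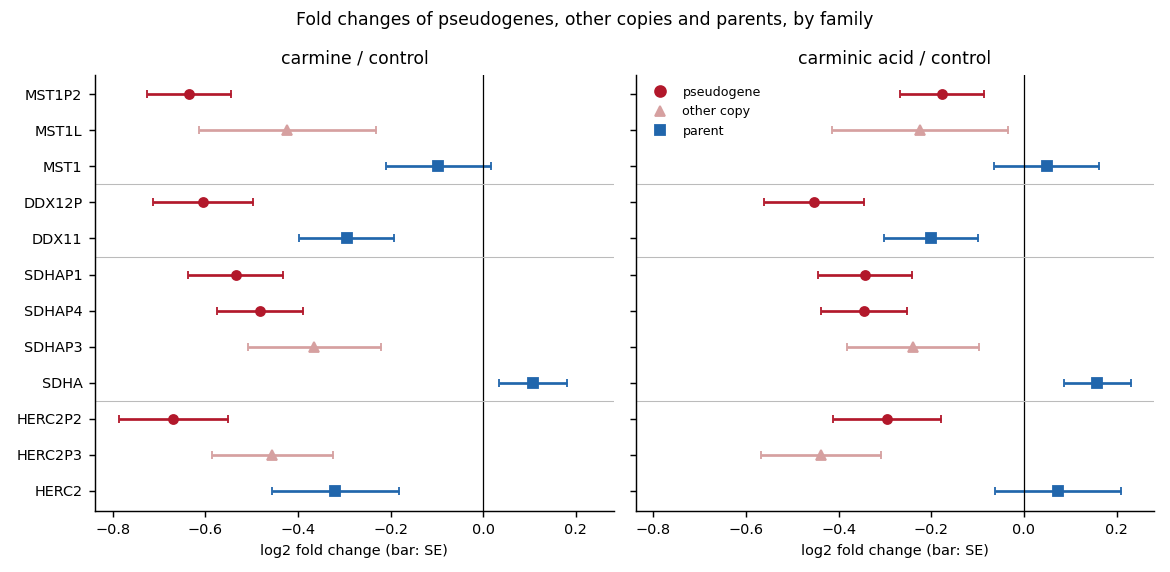
Log2 fold changes with their SE (bars) of pseudogenes (circles), other copies (triangles) and parents (squares), by family, for carmine against control and carminic acid against control. In carmine the 5 pseudogenes lie between -0.67 and -0.48 and the 4 parents between -0.32 and 0.11. In every family the pseudogene lies left of its parent in both comparisons.

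Set side by side, pseudogene minus parent on the log2 scale was -0.54 for MST1P2, -0.31 for DDX12P, -0.64 for SDHAP1, -0.59 for SDHAP4 and -0.35 for HERC2P2 in carmine against control. In carminic acid against control the same differences were -0.23, -0.25, -0.50, -0.50 and -0.37. The pseudogenes were chosen for being low, so the sign of these differences follows from the choice and is no finding. The choice did not use the values of the parents, but their counts may hold reads of the chosen pseudogenes, since the split is uncertain. Of the parents, 3 of 4 had negative values with carmine and 1 of 4 with carminic acid, and 48.3% and 51.9% of all genes tested had negative values. SDHA was the only parent with a positive value in both comparisons, and it passed the test in neither. Of the other tested copies of these families, DDX11-AS1 included, 5 of 6 were lower with carmine and 6 of 6 with carminic acid, and 0 passed the test in either. Copies such as HERC2P3 and MST1L share stretches with the chosen pseudogenes, so their counts may hold reads of those pseudogenes.

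With the counts of a parent and all its listed copies added up, which does not depend on how the counted reads were split among them, the family log2 fold change with carmine was -0.26 for MST1, -0.38 for DDX11, 0.04 for SDHA and -0.47 for HERC2. With carminic acid it was -0.03, -0.28, 0.10 and -0.12. The sums hold the counts of the pseudogenes chosen for being low, which pull them down, so they are given without a test.

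The share of a pair's counts that fell on the pseudogene is a ratio within 1 library, so it is not moved by library scaling. Since the pseudogenes were chosen for low counts in the treated libraries, a lower share there follows largely from the choice and is given as a description. Over 205 other pseudogenes set beside the gene their symbol names, the share was lower without overlap in 11.7% with carmine and in 14.1% with carminic acid. MST1P2 took 29.3%, 25.8% and 22.8% of the counts of MST1P2 and MST1 together with carmine, 31.3%, 30.0% and 29.3% in the carminic acid libraries, and 32.4%, 33.8% and 34.4% in control. The treated libraries were below control without overlap, and carmine library C was lowest. For DDX12P the shares averaged 26.8 ± 1.16% with carmine, 27.5 ± 1.36% with carminic acid and 31.3 ± 1.93% in control (SD, n = 3 each), and for SDHAP1 4.09 ± 0.279%, 4.48 ± 0.353% and 6.23 ± 0.466%. SDHAP4 took 4.86 ± 0.501%, 5.13 ± 0.391% and 7.11 ± 0.382% of its pair. In all these pairs neither treated group overlapped control. HERC2P2 took 36.8%, 37.2% and 38.7% with carmine, 32%, 35.6% and 45.4% in the carminic acid libraries, and 44.7%, 48.2% and 37.1% in control, so that both treated groups overlapped control. The 95% Wilson intervals of single libraries covered counting error only. In this pair the carminic acid libraries and the control libraries spread more widely than these intervals. The carmine libraries spread less widely than the interval of carmine library A, 35.1% to 38.6%.

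**Figure D3:**
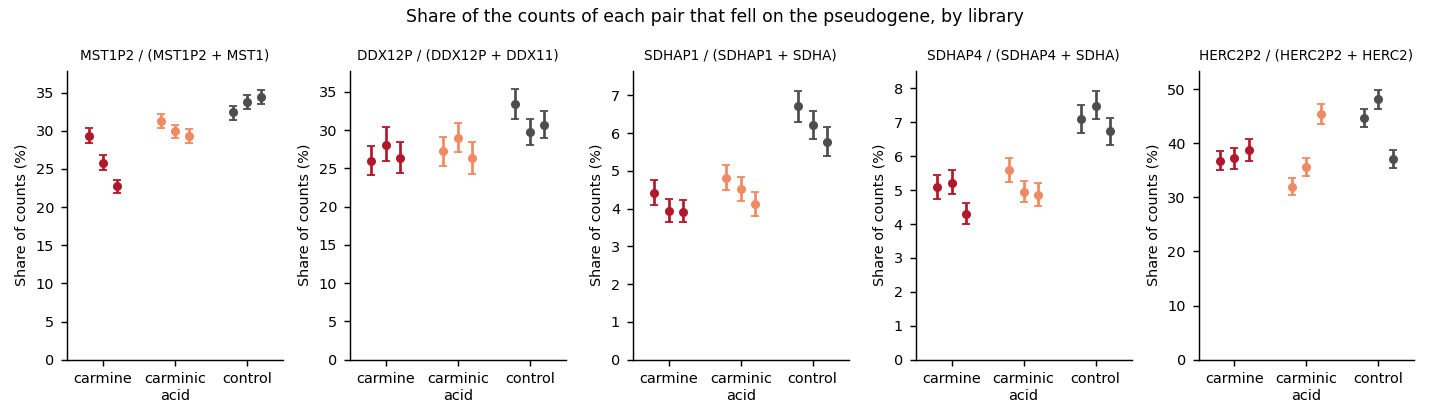
Share of the counts of each pair (percent, linear axes from 0) that fell on the pseudogene, 1 point per library, with 95% Wilson intervals. Treated points lie below all control points for MST1P2, DDX12P, SDHAP1 and SDHAP4, and overlap them for HERC2P2.

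Between the dyes the doses differed, 10 µM carmine and 20 µM carminic acid, so the values are set side by side and not as an effect of the metal. The carmine libraries also entered the choice of the pseudogenes, so their differences in this contrast are described without a test. CNIH1 was the 1 gene called by edgeR (0.00624% of those tested, adjusted p = 0.0312), and 1426 genes (8.9%) had an unadjusted p under 0.05. DESeq2 called 77 genes (0.66% of the 11666 to which it gave an adjusted p) and limma-voom 1 gene (0.00624% of those tested). MST1P2 averaged 37.5 ± 3 CPM with carmine and 51.5 ± 4.2 CPM with carminic acid (SD, n = 3 each), without overlap, as did 6.01% of genes in this direction. Its log2 difference was -0.46 (SE 0.0908), and -0.46 also without carmine library C. HERC2P2 averaged 16.1 ± 1.44 CPM with carmine and 20.8 ± 1.77 CPM with carminic acid, also without overlap (log2 difference -0.37, SE 0.118).

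The other pseudogenes overlapped between the dyes: the log2 difference of carmine minus carminic acid was -0.15 (SE 0.109) for DDX12P, -0.19 (SE 0.103) for SDHAP1 and -0.14 (SE 0.0933) for SDHAP4. Among the parents, which were tested, HERC2 had the largest difference, -0.39 (95% interval -0.69 to -0.10, edgeR adjusted p = 0.450), so that here HERC2P2 and HERC2 had nearly the same value. MST1 differed by -0.15 (95% interval -0.39 to 0.10, edgeR adjusted p = 0.736), DDX11 by -0.09 (edgeR adjusted p = 0.822) and SDHA by -0.05 (edgeR adjusted p = 0.860). MST1R, the receptor of the MST1 product, had -0.35 (edgeR adjusted p = 0.326).

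Whether the counts of a pseudogene and its parent vary together can also be read from the spread among libraries of 1 group. The pseudogenes were chosen for lower counts in treated libraries and not for this correlation, but such a choice may favour genes with a small spread within groups. Reads that match both copy and parent can make the 2 counts vary together, and this was not tested. DDX12P had the largest share of 50-base stretches found in its parent, 43.8%. The deviation of log2 CPM from the group mean was correlated over the 9 libraries for the 5 pairs, with exact permutation within groups over 216 arrangements, two-sided, where the smallest possible p is 0.00463. DDX12P and DDX11 had Pearson's r = 0.682 (exact permutation p = 0.0324, adjusted over the 5 pairs 0.162) and Spearman's rho = 0.767 (p = 0.0139, adjusted 0.0694), with r = 0.809 after leaving out the 2 libraries farthest from the median of the parent. MST1P2 and MST1 had r = 0.525 (exact permutation p = 0.213, adjusted 0.532; rho = 0.583, p = 0.171, adjusted 0.428), with 0.548 after leaving out 2 libraries. None of the 5 pairs passed after adjustment.

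For the SDHA and HERC2 families the correlation was weaker. SDHAP1 and SDHA had r = 0.400 (exact permutation p = 0.338, adjusted 0.563; rho = 0.317, p = 0.463, adjusted 0.772), and the relation rested on 2 libraries, since r was 0.041 without them. SDHAP4 and SDHA had r = -0.046 (exact permutation p = 0.958, adjusted 0.958; rho = -0.150, p = 0.699, adjusted 0.787), with 0.159 without 2 libraries. HERC2P2 and HERC2 had r = -0.267 (exact permutation p = 0.458, adjusted 0.573; rho = -0.117, p = 0.787, adjusted 0.787), with 0.036 without 2 libraries. Ranked among all 16016 other tested genes by this r, DDX11 came 593rd for DDX12P, MST1 1315th for MST1P2, SDHA 3728th for SDHAP1 and 8408th for SDHAP4, and HERC2 12197th for HERC2P2.

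**Figure D4:**
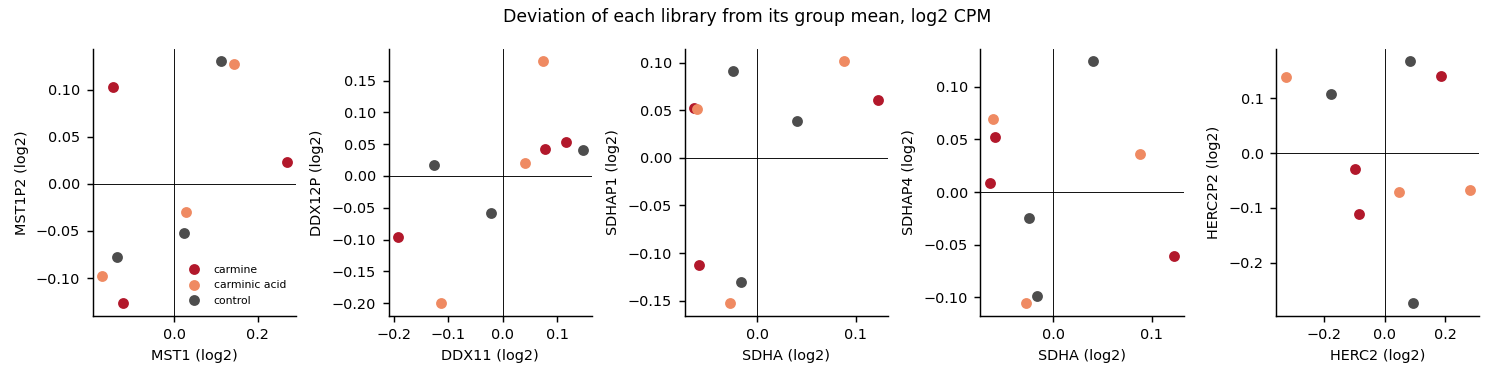
Deviation of each library from its group mean (log2 CPM) of the pseudogene against that of the parent, 1 panel per pair, 9 libraries, coloured by group. The points of DDX12P and DDX11 run from low-low to high-high (r = 0.682), whereas those of SDHAP4 and SDHA (r = -0.046) and HERC2P2 and HERC2 (r = -0.267) show no such run. Reads that match both copy and parent may enter either count.

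The same r over 9 libraries was also used, as a description, to find the genes whose within-group pattern was most like each pseudogene. Only genes with a symbol and an average log2 CPM of at least 0 were considered, and the genes found were other genes than the parents. They were RANBP10 (0.949) and ENGASE (0.942) for MST1P2, FAM131B (0.968) for DDX12P, LINC00937 (0.982) and SYT7 (0.979) for SDHAP1, KCNJ14 (0.927) and CRYAB (0.925) for SDHAP4, and PRKAR2A-AS1 (0.965) and TCTN2 (0.957) for HERC2P2. With 9 libraries and so many candidates such values lie near the top of a wide distribution. Over all 16016 other tested genes, 95% had an r with DDX12P below 0.642 and the median was 0.032. Among the pseudogenes themselves, DDX12P and SDHAP1 were most alike (0.883) and DDX12P and HERC2P2 least (-0.012). The points share their library and its depth.

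The 5 pairs were also set in the background of all pseudogenes. Of 435 tested genes typed as transcribed pseudogenes, 61.8% had a negative log2 fold change with carmine and 65.7% with carminic acid, against 46.8% and 50.3% of 14017 protein-coding genes. Without the 5 pseudogenes described the shares were 61.4% and 65.3%. Of 1254 tested genes typed as long noncoding RNAs, 55.9% had a negative value with carmine and 60.4% with carminic acid. The medians over the 435 were -0.09 in both comparisons, and those of protein-coding genes 0.01 and 0.00. Groups separated in the lower direction in 13.1% of these pseudogenes with carmine and 13.1% with carminic acid, against 7.67% and 8.82% of all genes. Among the long noncoding RNAs these shares were 9.73% and 10.9%. Pseudogenes were also lower in abundance, with a median average log2 CPM of 0.56 against 4.5 for protein-coding genes, and its part in the difference was not tested. The long noncoding RNAs, at -0.04, were nearer to the pseudogenes in abundance. Between carmine and carminic acid the share of transcribed pseudogenes with a negative value was 51.3%.

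Matching symbols (a protein-coding symbol followed by P and an optional number) gave 209 tested pseudogenes beside a tested parent. MST1P2, SDHAP1, SDHAP4 and HERC2P2 are among them, and the other 205 include further copies of the families described, such as SDHAP3, HERC2P3 and HERC2P9. The match goes by name alone. The median of pseudogene minus parent over the 209 was -0.10 with carmine and -0.08 with carminic acid, and -0.01 between the dyes. The pseudogene was below its parent in 61.7% of pairs with carmine, 62.7% with carminic acid and 51.7% between the dyes. Without control library A the carmine median was -0.01. Across the 209 pairs, which are genes and not replicates and which share libraries, the fold changes of pseudogene and parent had r = 0.096 with carmine and 0.040 with carminic acid, as a description. Some parents enter with several pseudogenes, such as RRN3 (1.69 with carmine). Extreme values such as those of RRN3 and HERC2P9 (-3.30 with carmine) weigh on r, and no rank correlation was computed.

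**Figure D5:**
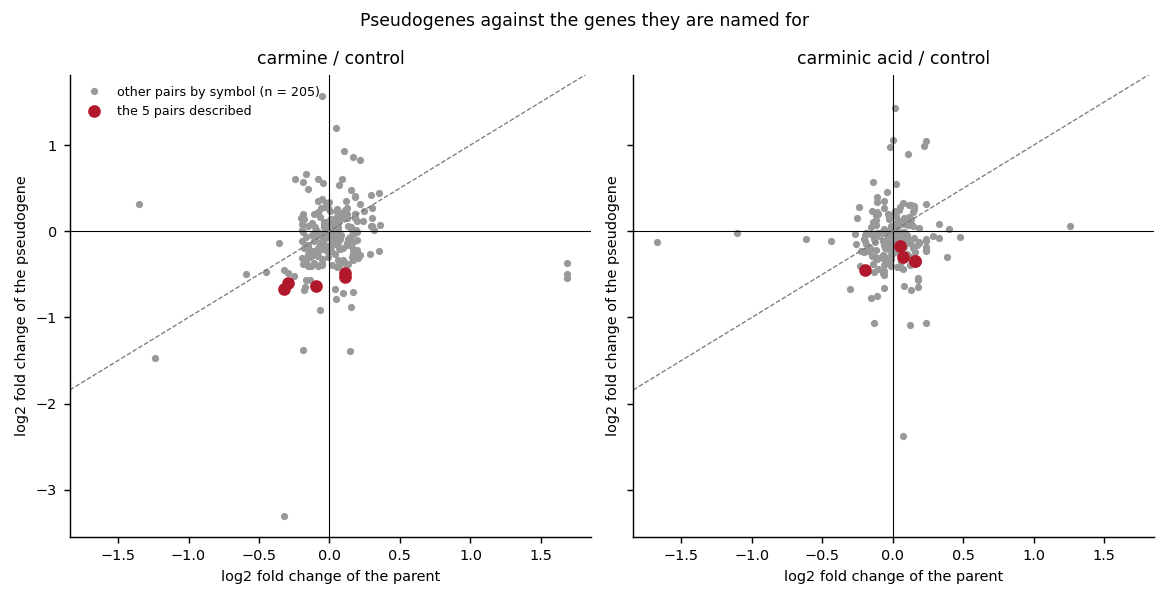
Log2 fold change of each pseudogene (vertical) against that of the gene it is named for (horizontal), for carmine against control and carminic acid against control. Grey points are 205 pairs matched by symbol, red points the 5 pairs described, and the dashed line marks equal change. The red points lie below the dashed line in both panels. Over all 209 pairs r was 0.096 and 0.040, values on which a few extreme points weigh.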

How the data were processed

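Total RNA of 9 samples of differentiated Caco-2 cells was sequenced. The authors deposited raw read counts per gene and library, under NCBI Gene IDs. The aligner was HISAT2, per the file headers. The submitters' processing notes name hg38 as the build and list featureCounts, HISAT and FastQC, without versions. The treatment of multi-mapping reads, the strand setting, the library kit and the annotation release are not given in the sources used.

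Of 28395 genes, 27745 had a symbol in RefSeq's table of GRCh38.p14 and 650 had none. Counts were fitted in R 4.3.3 with edgeR 4.0.16: filterByExpr by group left 16017 genes, libraries were scaled by TMM, and 1 robust quasi-likelihood model of all 9 libraries gave 3 two-sided contrasts. Adjustment followed Benjamini and Hochberg across the 16017 genes of a contrast, with 0.05 as the threshold. Levels are given in CPM. The biological coefficient of variation came to 10.9%. Libraries of a group differed by more than sampling noise (chi-square per degree of freedom 9.51 or more). The model was tested on simulated data.

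Gene coordinates are those of RefSeq GRCh38.p14. Transcripts of GENCODE v29 (GRCh38), which may not be the annotation counted, gave lengths, sequences and alignments (blastn), and SDHAP4 was matched there through its Gene ID. Log2 CPM for correlations used a prior count of 2.

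Alternatives were DESeq2 1.42.0, limma-voom (limma 3.58.1), RLE factors, scaling by library size alone, a filter of more than 1 CPM in 3 libraries or no filter, the replicate letter as a block, a trend over transcript length and GC removed (both known for 96.5% of tested genes), only the 6 libraries compared, families summed, a prior count of 0.5, and leaving out each library. Named beside the 9 genes are the tested copies of their families, the member of each list with the smallest p, and the 2 genes most like each pseudogene, of which 1 is not reported here. The members and lists were chosen with earlier results of these data known.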

Additional observations from a re-analysis of the deposited data

How the results depend on the processing

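The 4 parents stayed at 0 calls in every comparison and alternative, of which summed families also hold the chosen pseudogenes. The count of all genes called moved. Carmine against control gave 7 genes with RLE factors, 7 with library size alone, 19 with no filter, 81 with DESeq2, 108 with the length and GC trend removed and 12 with only 6 libraries, and 0 to 36 when leaving out each library, with 36 without carmine library C. Carminic acid against control gave 2 with no filter, 6 with DESeq2, 2 with the trend removed and 49 with only 6 libraries, and 0 to 21 when leaving out each library. Carmine against carminic acid gave 2 with RLE factors, 2 with library size alone, 9 with no filter, 77 with DESeq2 and 7 with the trend removed, and 0 to 685 when leaving out each library.

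The replicate letters showed no common deviation (correlations of same-letter libraries -0.149 to 0.095 over 9 pairs, against -0.162 to 0.156 over 18 pairs of different letters), so the letters were not taken to pair samples. The replicate block gave 0 genes in each comparison, and 0 with library size alone.

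The median of pseudogene minus parent over the 209 pairs ran from -0.111 to -0.012 for carmine, -0.100 to -0.046 for carminic acid and -0.032 to 0.003 between the dyes when leaving out each library. The correlation within groups ran from 0.398 to 0.869 for MST1P2, 0.623 to 0.804 for DDX12P, 0.212 to 0.551 for SDHAP1, -0.312 to 0.362 for SDHAP4 and -0.531 to 0.058 for HERC2P2, so that the last 2 changed sign.

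For single genes, MST1 with carminic acid turned to -0.044 with the trend removed, -0.026 with families summed, -0.025 without carminic acid library B and -0.018 without control library C, with 0.124 as the highest when leaving out each library. HERC2 with carminic acid turned to -0.121 with families summed, -0.084 without carminic acid library A and -0.015 without control library B, with 0.214 as the highest. DDX11L2 with carminic acid ran from -0.422 to 0.181, the last without control library A. Between the dyes, DDX11-AS1 ran from -0.043 to 0.317 when leaving out each library (-0.014 without carmine library A, -0.043 without B) and HERC2P3 from -0.085 to 0.086 (0.073 without carmine library C). Of the other single values, 845 kept their direction and their side of the threshold, or stayed within the spread between libraries. Not among these are 2 values of MST1P2 between the dyes, -0.455 with DESeq2 and -0.460 without carmine library C. They kept their direction but not their side of the threshold. No test is drawn from them, since the gene was chosen for being low. Why these values moved was not tested. DDX11L2, DDX11-AS1 and HERC2P9, each under 1 CPM on average in every group, rest on few counts.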

Other observations

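Genes within 250 kb of the members were looked at after the results were known, and their direction differed between members. Of all genes tested, 48.3% were lower with carmine and 51.9% with carminic acid. Around MST1P2, 5 of 7 tested neighbours were lower with carmine (median -0.11 on the log2 scale), around DDX12P 5 of 8 (median -0.08), around SDHAP1 2 of 4 (median 0.02), around SDHAP4 3 of 4 (median -0.17) and around HERC2P2 2 of 4 (median -0.02). With carminic acid 5 of 7 were lower around MST1P2 (median -0.09) and 6 of 8 around DDX12P (median -0.38). Around SDHAP1 it was 1 of 4 (median 0.07), around SDHAP4 4 of 4 (-0.08) and around HERC2P2 3 of 4 (-0.07). The neighbours of MST1P2 include its family copy MST1L. The neighbour of SDHAP4 with the lowest value was BDH1, a mitochondrial enzyme of ketone body metabolism, at an average log2 CPM of 0.15. Its log2 fold changes were -1.06 for carmine (edgeR adjusted p = 0.341) and -1.04 for carminic acid (edgeR adjusted p = 0.717). Beside DDX11, SINHCAF, a subunit of the SIN3 histone deacetylase complex, had 1.35 (edgeR adjusted p = 0.545) and 1.85 (edgeR adjusted p = 0.717), at an average log2 CPM of 2.93. Neither neighbour passed, and their spread between libraries is not given here.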
